A study of Mus musculus with 14 samples.

Results

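Chromatin accessibility was compared between long-term haematopoietic stem cells (LT-HSCs) of old mice that had been kept with Rhosin, an inhibitor of the small GTPase RhoA, and LT-HSCs of young mice that had not. The comparison used 9 of the 14 bulk ATAC-seq libraries of the series, 5 labelled aged Ri and 4 labelled young, chosen by their labels and not by any measured value. The young cells came from C57BL/6 mice of 10 to 16 weeks, and the aged Ri cells from C57BL/6 mice of over 80 weeks. Both were sorted from bone marrow as lineage-negative, Sca1+, cKit+, CD34- and Flt3- cells. Both were then kept for 16 h in HBSS with 10% FBS and 1% P/S at 37 °C, 3% oxygen and 5% carbon dioxide, the aged Ri cells with 100 µM Rhosin. The young cells were therefore not fresh cells. The labels name no vehicle for the cells without Rhosin, no sex, and no number of animals behind a replicate, so p-values measure the spread between these libraries. No young cells with Rhosin were among the samples, so age and Rhosin cannot be told apart in the comparison itself. The 5 libraries of aged cells without Rhosin are set beside it where they bear on a named gene. These cells also came from mice of over 80 weeks. They too were kept for 16 h, at the same temperature, oxygen, carbon dioxide, FBS and P/S. Each aged library had the batch of the aged Ri library with its number. Sequencing batch 1 held young 1 and aged Ri 1 and 2, batch 2 held young 2 and 3 and aged Ri 3 and 4, and batch 3 held young 4 and aged Ri 5.

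ATAC-seq inserts sequencing adapters where DNA is free of nucleosomes, so that reads pile up at active promoters and enhancers. LT-HSCs sit at the top of the blood lineages, and with age they gain in number while their output shifts toward platelets and myeloid cells. RhoA switches between GTP- and GDP-bound forms and, through ROCK kinases and formins, sets actomyosin tension. Rhosin binds RhoA where its exchange factors dock.

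The text turns on a few gene starts, and the RefSeq (GRCm38.p6) sequences around 8 of them are shown here so that the regions behind the values can be read. Each runs 5′ to 3′ from 250 bases before to 50 bases after the listed start. Cavin2, Nupr1 and Wwtr1 were the gains, and Ube2z, Tanc2 and Coa8 the losses, with the smallest p among the named gene starts. Nqo1 and Cyp1b1 were added after their values had been seen, because they were also higher than in aged cells without Rhosin. Capitals mark matches, on either strand, to 12 motifs: AP-1 TGANTCA, CRE TGACGTCA, the antioxidant response element core TGACNNNGC, the aryl hydrocarbon receptor core GCGTG, the GATA-factor motif GATAAG, ETS CCGGAAG, RUNX TGTGGT, the box named CCAAT after its letters, the GC box GGGCGG, TEAD GGAATG, the E-box CACGTG and the interferon response element. Motifs were chosen with the data at hand, and 13 were searched in all: NF-kB is not capitalised, a choice made after 69.0% of all promoters had been seen to match it.
Cavin2 (chr1:51288876-51289175, plus strand): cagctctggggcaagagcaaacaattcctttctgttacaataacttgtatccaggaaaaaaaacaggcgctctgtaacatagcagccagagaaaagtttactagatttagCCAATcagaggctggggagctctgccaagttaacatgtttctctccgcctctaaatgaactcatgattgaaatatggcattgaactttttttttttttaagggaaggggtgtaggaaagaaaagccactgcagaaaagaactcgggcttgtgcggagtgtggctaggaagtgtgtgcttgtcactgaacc
Nupr1 (chr7:126625421-126625720, minus strand): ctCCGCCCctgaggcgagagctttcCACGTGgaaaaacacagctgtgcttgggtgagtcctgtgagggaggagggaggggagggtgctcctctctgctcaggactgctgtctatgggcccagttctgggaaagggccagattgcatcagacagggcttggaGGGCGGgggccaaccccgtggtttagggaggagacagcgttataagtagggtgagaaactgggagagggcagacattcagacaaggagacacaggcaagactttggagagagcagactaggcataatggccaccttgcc
Wwtr1 (chr3:57575827-57576126, minus strand): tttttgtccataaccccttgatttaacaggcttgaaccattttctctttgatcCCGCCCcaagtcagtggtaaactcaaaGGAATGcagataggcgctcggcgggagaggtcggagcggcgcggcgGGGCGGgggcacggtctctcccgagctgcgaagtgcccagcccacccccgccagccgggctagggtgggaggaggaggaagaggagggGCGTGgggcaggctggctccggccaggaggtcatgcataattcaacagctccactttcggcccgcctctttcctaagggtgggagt
Ube2z (chr11:96065315-96065614, minus strand): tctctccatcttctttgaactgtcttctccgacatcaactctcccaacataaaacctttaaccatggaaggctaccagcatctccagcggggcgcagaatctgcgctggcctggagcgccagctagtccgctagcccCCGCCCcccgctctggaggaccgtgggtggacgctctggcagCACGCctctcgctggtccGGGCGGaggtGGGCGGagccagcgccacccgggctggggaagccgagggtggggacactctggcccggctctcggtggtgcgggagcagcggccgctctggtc
Tanc2 (chr11:105589736-105590035, plus strand): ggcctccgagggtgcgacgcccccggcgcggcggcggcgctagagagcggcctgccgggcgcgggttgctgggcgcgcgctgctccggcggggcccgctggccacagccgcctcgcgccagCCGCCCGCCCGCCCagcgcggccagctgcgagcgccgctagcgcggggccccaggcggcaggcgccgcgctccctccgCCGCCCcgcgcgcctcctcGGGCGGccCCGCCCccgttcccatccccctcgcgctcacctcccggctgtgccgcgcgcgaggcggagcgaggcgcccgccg
Coa8 (chr12:111713019-111713318, plus strand): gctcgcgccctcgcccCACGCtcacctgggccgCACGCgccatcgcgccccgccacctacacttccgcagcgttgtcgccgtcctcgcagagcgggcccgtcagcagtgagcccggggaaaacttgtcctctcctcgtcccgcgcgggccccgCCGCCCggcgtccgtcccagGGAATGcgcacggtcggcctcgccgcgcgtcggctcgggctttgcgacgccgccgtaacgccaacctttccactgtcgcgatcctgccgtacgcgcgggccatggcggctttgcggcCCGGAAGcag
Nqo1 (chr8:107403156-107403455, minus strand): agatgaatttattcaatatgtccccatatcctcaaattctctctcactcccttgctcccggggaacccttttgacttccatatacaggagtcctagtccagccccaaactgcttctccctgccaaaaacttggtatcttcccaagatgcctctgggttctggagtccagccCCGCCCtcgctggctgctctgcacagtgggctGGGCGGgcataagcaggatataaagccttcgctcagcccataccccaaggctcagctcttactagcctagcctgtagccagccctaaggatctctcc
Cyp1b1 (chr17:79715012-79715311, minus strand): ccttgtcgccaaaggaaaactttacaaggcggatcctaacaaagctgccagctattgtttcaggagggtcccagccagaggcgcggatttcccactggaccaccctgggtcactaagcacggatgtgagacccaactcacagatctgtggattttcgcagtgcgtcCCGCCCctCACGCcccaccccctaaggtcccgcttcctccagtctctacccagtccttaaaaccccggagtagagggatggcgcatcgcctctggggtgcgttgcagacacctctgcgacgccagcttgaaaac

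The 3 losses shown lie in more GC-rich sequence than Cavin2, Nupr1 and Wwtr1, an order that not all other named starts kept. The gains B3gnt8 and Khdrbs2, described below, were each at 70.3% G or C, and the loss Lipo3 at 43.7%. The loss Iqgap2, at 74.3%, kept the order. The Tanc2 window was 85.3% G or C and held 6 GC boxes, the Coa8 window 74.0%, and the Ube2z window 66.7% with 3 GC boxes. The Cavin2 window was 43.3% G or C with 1 CCAAT match, and the Nupr1 window 58.3% with 2 GC boxes and 1 E-box. The Wwtr1 window was at 62.0%. Among all 10777 promoters with a peak, 66.1% held a GC box, 38.3% a CCAAT match, 10.2% an E-box, 52.4% the aryl hydrocarbon receptor core and 11.4% a TEAD match. Neither the Nqo1 nor the Cyp1b1 window held the antioxidant response element core, which 14.7% of promoters held, and Cyp1b1 held 1 aryl hydrocarbon receptor core. A match is a run of letters, not a shown binding site, and none says only that the letters are not in the window.

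Depth ranged from 765533 counts in young 3 to 3176246 in aged Ri 3, with means of 1674900 ± 690400 in young (SD, n = 4) and 2278390 ± 827453 in aged Ri (SD, n = 5), a difference with a 2-sided exact permutation p within batches of 0.278. Libraries of one group correlated at 0.76 to 0.90 (Pearson's r of log2 CPM over peaks, lowest and highest of all within-group pairs), and young with aged Ri libraries at 0.50 to 0.89. Of 10 LT-HSC markers, 9 had a peak at their start and Slamf1 had none. Their median level was 51.8 CPM per kb (CPM is counts scaled to a common library size; here of gene starts, per length) in young and 49.4 in aged Ri, against 73.5 and 73.3 over all gene starts. Genes that mark other cells had peaks too, at the starts of 21 of 25 megakaryocyte and platelet, 16 of 26 myeloid, 13 of 21 B and common lymphoid, 10 of 20 T and NK, 10 of 20 endothelial and stromal and 9 of 19 erythroid genes. Cd3e, Pax5, Elane, S100a8, Gata1 and Cdh5 were among those with none. The megakaryocyte and platelet median, 51.8 CPM per kb in young and 67.2 in aged Ri, was as high as that of the LT-HSC markers in young and above it in aged Ri. The RhoA gene itself did not pass the test at its start, at 211, 189, 294 and 161 CPM in young 1 to 4 and 144, 212, 201, 216 and 123 CPM in aged Ri 1 to 5 (log2 fold change -0.23 ± 0.15 SE, edgeR adjusted p = 0.384). Rhosin acts on the protein, so this is no check of the treatment.

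Gains in aged Ri cells were larger and more numerous than losses, and lay mostly away from gene starts. Among 56235 peaks of 700 bp tested with edgeR's quasi-likelihood test, 4441 (7.9%) were higher and 2002 (3.56%) lower in aged Ri than in young at a Benjamini-Hochberg adjusted p under 0.05. The median fold among them was 2.31 for the higher and 2.15 for the lower peaks. An unadjusted p under 0.05 was met by 15550 peaks (27.7%). All aged Ri libraries lay above all young ones in 3597 tested peaks (6.4%), called or not, and below them in 1378 (2.45%). For side by side reading, with libraries shared between the comparisons, aged against young called 3214 peaks (5.72%) and aged Ri against aged 251 (0.446%). Aged and aged Ri libraries of one number share a batch and deviated together, and a fit of these 10 libraries with the number as a block called 2292 peaks (4.42%), all 251 among them.

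Of the 22105 peaks inside gene spans, 2126 were higher and 740 lower, and of the 20456 between genes 2012 and 680. Peaks between genes and over 50 kb from any gene were higher most often, 807 of 6425 (12.6%), with 222 lower. Peaks at gene starts went the other way, with 303 higher and 582 lower of 13674. That last order did not hold in every fit: it was 137 higher and 89 lower without aged Ri 3, 161 and 154 without young 1, and 247 and 238 without aged Ri 1. It also turned with all libraries kept, to 185 and 174 without the batch term and 36 and 1 with each library's share of counts at gene starts as a covariate. On chromosome X 110 peaks were higher and 9 lower of 1228, but 45 and 26 without young 1. X-linked counts made up 1.52% of young 1 and 1.89% to 2.11% of the other young libraries.

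**Figure D1:**
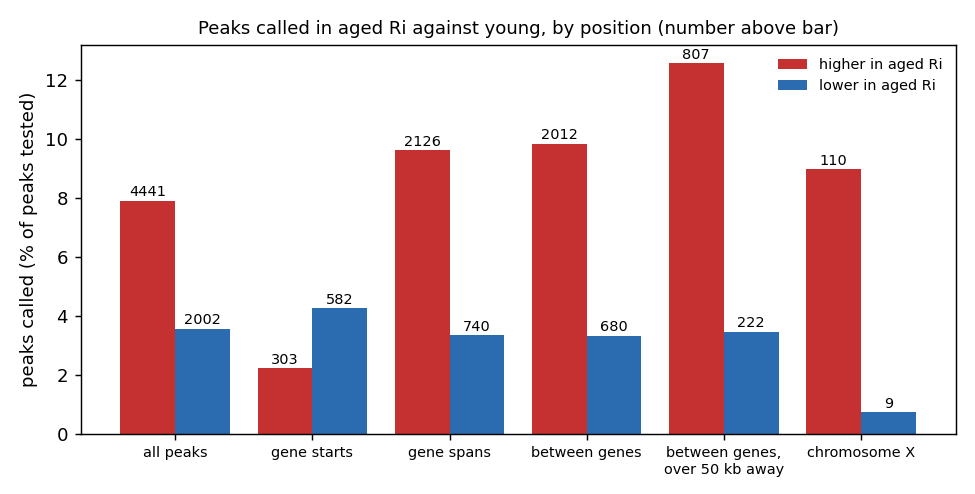
Share of tested peaks called higher (red) or lower (blue) in aged Ri than in young, in percent, by position; the number of peaks stands above each bar. Higher calls lead in every class but gene starts, where 303 peaks were higher and 582 lower in this fit, an order that turned without the batch term, with the gene-start share as a covariate and without aged Ri 3, young 1 or aged Ri 1.

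The libraries also differed in how many of their counts fell at gene starts. That share was 48.9%, 49.0%, 52.2% and 53.2% in young 1 to 4 and 36.9%, 45.8%, 41.2%, 48.8% and 47.7% in aged Ri 1 to 5. The groups do not overlap, though aged Ri 4 and young 1 lie next to each other. The means were 50.8% ± 2.18 (SD, n = 4) and 44.1% ± 4.97 (SD, n = 5), and aged cells without Rhosin had 44.2% ± 4.82 (SD, n = 5). With batch as a term, aged Ri lay -6.16 percentage points from young, with a 2-sided exact permutation p within batches of 0.0833, where 36 arrangements allow no p below 0.0278. It was -7.58, -5.57 and -5.43 points within batches 1, 2 and 3. Without the batch term it was -6.72 points (exact permutation over 126 arrangements, p = 0.0397).

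With that share as a covariate in the fit, 573 peaks were called, 554 higher and 19 lower, and 542 of them were among the 6443 called without it. Of the 4441 higher peaks 528 remained called, and of the 2002 lower ones 14, while the sign stayed in 4440 and 2001. Their median log2 fold changes were 0.96 and -0.73 with the covariate, and 1.21 and -1.10 without it. The share is lower in the aged Ri libraries, so the covariate takes up part of the group difference, and the 2 cannot be told apart. Removing trends against mean accessibility (loess offsets) gave 4054 higher and 2974 lower peaks. Calls kept whichever single library was left out numbered 1794 of the higher and 177 of the lower peaks.

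**Figure D2:**
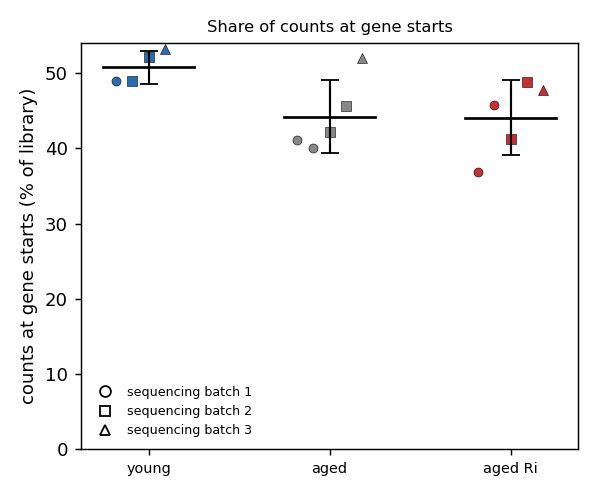
Share of each library's counts that fell at gene starts, in percent; points are libraries, shapes are sequencing batches, the bar is the group mean and the whisker its SD. Young libraries sit at 48.9% to 53.2% and aged Ri libraries at 36.9% to 48.8%.

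Among called peaks whose mean count reached 20 and that moved 1 way in all 3 batches, 11 of the 12 largest gains are described here. They ran from 6.26-fold to 9.63-fold, and each separated the groups. The highest of the 11 lay inside Rftn1, a lipid raft protein gene (chr17:50161216-50161915). It was at 2.66, 0.687, 1.42 and 3.39 CPM in young 1 to 4 and at 17.7, 28.9, 33.6, 21.6 and 15 CPM in aged Ri 1 to 5. Every aged Ri library lay well above the highest young one. The log2 fold change was 3.27 ± 0.37 (SE, edgeR adjusted p = 1.3e-06), 9.63-fold.

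Ezh1, which encodes the alternative catalytic subunit of Polycomb repressive complex 2, had a peak in its span (chr11:101221025-101221724) at 4.44, 8.93, 2.84 and 8.22 CPM in young and 49.5, 58.7, 83.9, 31.3 and 17.0 CPM in aged Ri. The groups were apart, and aged Ri 5 was the lowest of the treated libraries. The gain was 6.44-fold (log2 2.69 ± 0.40 SE, edgeR adjusted p = 0.000169).

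Pde4b, which encodes a cAMP phosphodiesterase, had a peak 41090 bp away that was 8.81-fold higher. Its values were 2.22 to 7.56 CPM in young, 12 to 27.3 CPM in aged and 23.4 to 66.5 CPM in aged Ri. It was one of 3 of the 11 peaks that were also called higher in aged Ri than in aged (2.17-fold, edgeR adjusted p = 0.0241), with those at Nprl3, a brake on mTORC1 (2.60-fold, adjusted p = 0.0141), and at Pcif1, an mRNA cap methyltransferase (2.40-fold, adjusted p = 0.0407). With the replicate block those at Cpne4 and Ccna1 were called as well. The Nprl3 span also holds enhancers of the alpha-globin genes. The other gains lay at Ctso, Trhr, Cpne4, Ipo5, Ccna1 and Asb3. All 11 were called in aged against young, stayed called without each library in turn, and stayed called with the gene-start share as a covariate.

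The 12 largest losses were smaller, 3.28-fold to 4.19-fold, and only 4 of them separated the groups. A peak 30417 bp from Spry1 (chr3:37675016-37675715), an inhibitor of growth factor signalling, was among these 4. It was at 29.3, 25.4, 25.6 and 13.5 CPM in young and 6.77, 5.96, 5.81, 10.4 and 4.85 CPM in aged Ri (log2 fold change -1.76 ± 0.30 SE, edgeR adjusted p = 0.000179). A peak inside Pcnt (chr10:76354720-76355419), a centrosome scaffold, was at 29.3, 22.7, 38.3 and 12.1 CPM in young and 7.29, 10.2, 4.52, 9.35 and 5.26 CPM in aged Ri (log2 -1.79 ± 0.31 SE, edgeR adjusted p = 0.000191). In both, young 4 was the lowest young library.

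The peak near Cpn2 fell most, from 42.5 ± 23.7 CPM (SD, n = 4) to 9.89 ± 4.31 CPM (SD, n = 5), but its edgeR adjusted p of 0.0325 rose to as much as 0.12 when single libraries were left out. The peak near Ccr7, a lymphoid homing receptor, fell 3.39-fold, with young 1 at 46.2 CPM and young 4 at 6.77 CPM, within the aged Ri range of 4.2 to 10.8 CPM. The others lay at Ksr1, Dab2ip, Sergef, Slc43a2, Emc3, Gm15319, 2900026A02Rik and Anp32e. Calls held without each library in turn for 5 of the 12 losses, and for none of the 12 with the gene-start share as a covariate. In aged against young 6 of the 12 were called. None was called in aged Ri against aged, but with the replicate block those near Cpn2 and Gm15319 were (edgeR adjusted p = 0.0421 and 0.00028).

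**Figure D3:**
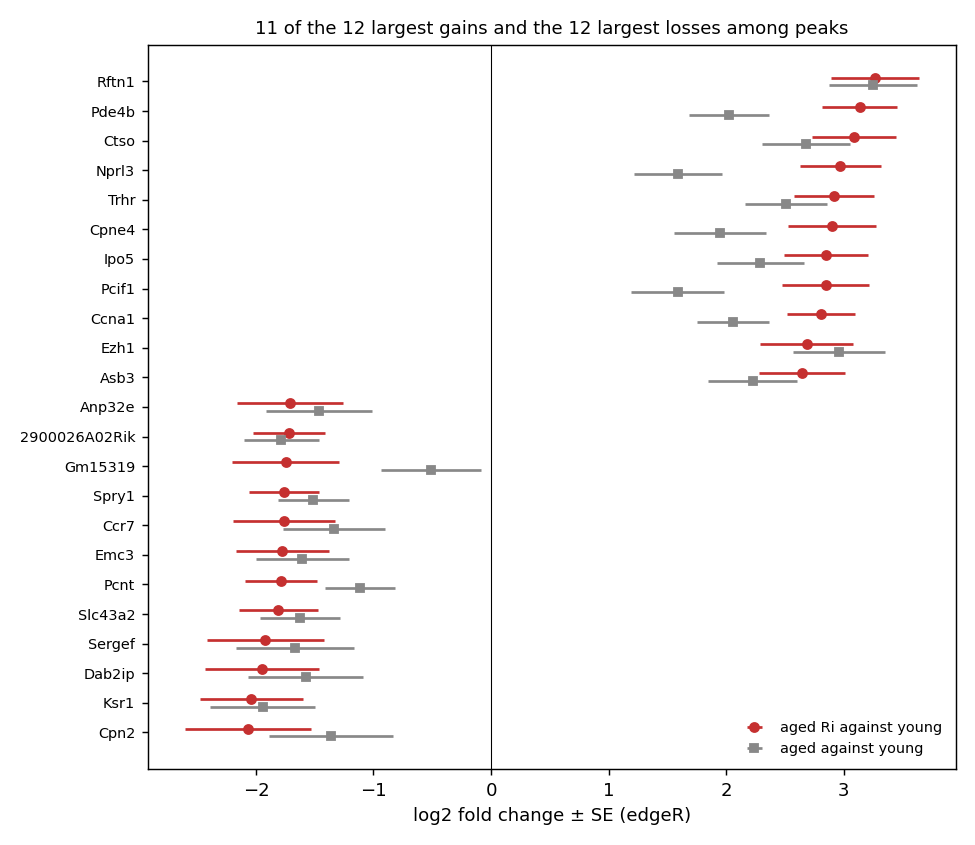
The 11 gains described and the 12 largest losses among peaks, by the gene that holds the peak or lies nearest: log2 fold change with its SE from edgeR, in red for aged Ri against young and in grey for aged against young, which share the young libraries. Gains in red run from 2.65 (Asb3) to 3.27 (Rftn1), and losses from -1.71 (Anp32e) to -2.07 (Cpn2).

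Accessibility at gene starts was summed over peaks within 1 kb of each protein-coding gene's listed start, or, for genes with no listed start, of the annotated end with more counts. Of 13399 gene starts, 545 (4.07%) were higher and 166 (1.24%) lower in aged Ri than in young (edgeR, adjusted p under 0.05), and 2861 (21.4%) met an unadjusted p under 0.05. The groups did not overlap at 528 starts that were higher (3.94%) and 269 that were lower (2.01%), called or not. These counts are scaled to the gene-start total. Scaled over all peaks instead, the split turned to 236 higher and 525 lower, with the median of all gene starts at -0.25 on the log2 scale, so the directions below are relative to other gene starts. With the gene-start share as a covariate 41 were called, 37 higher and 4 lower. Aged against young called 285 (2.13%) and aged Ri against aged 24 (0.179%), with libraries shared. The 10 aged and aged Ri libraries with the replicate block gave 128 (0.971%) for the latter, all 24 among them.

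Gains and losses at single starts are ranked here among the 643 called starts with a mean count of at least 20 and 1 direction in all 3 batches. Nupr1, a stress-induced transcriptional regulator, showed the largest gain among them. It was at 7.86, 4.83, 4.53 and 12.7 CPM in young 1 to 4 and 47.4, 31.7, 71.6, 62.2 and 47.6 CPM in aged Ri 1 to 5. The groups were far apart, 6.08-fold by the model (log2 2.60 ± 0.28 SE, edgeR adjusted p = 8.7e-08). Aged cells without Rhosin held 50.2 ± 19.3 CPM (SD, n = 5), beside 52.1 ± 15.3 CPM in aged Ri (SD, n = 5).

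Cavin2, which shapes caveolae at the plasma membrane, was at 15.7, 14.5, 11.3 and 15 CPM in young and 93.4, 90.4, 117, 68.4 and 41.0 CPM in aged Ri. The young libraries were close together and aged Ri 5 was the lowest treated one. The gain was 4.98-fold (log2 2.32 ± 0.24 SE, edgeR adjusted p = 7.74e-08). Wwtr1, which encodes TAZ, a transcriptional partner of TEAD factors that responds to cell tension, was at 18.1, 21.8, 15.8 and 39.7 CPM in young and 92.0, 63.4, 122, 98.2 and 102 CPM in aged Ri. Young 4 was the highest young library and still below all aged Ri ones, and the gain was 3.85-fold (log2 1.94 ± 0.21 SE, edgeR adjusted p = 2.87e-07). These 3 genes stayed called in every alternative fit.

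Hoxa5, a homeobox regulator of blood progenitors, was 4.16-fold higher, at 4.83 to 18.1 CPM in young and 25.9 to 65.3 CPM in aged Ri. Sqor, a mitochondrial sulfide oxidase, was 4.56-fold higher, B3gnt8, a glycosyltransferase, 4.21-fold, and Khdrbs2, an RNA-binding protein, 4.00-fold. The odorant receptor gene Olfr520 was 4.26-fold higher, with aged Ri 3 at 152 CPM and the other treated libraries at 35.1 to 57.2 CPM. Arap3, a GTPase-activating protein that acts on RhoA, was 4.2-fold higher at its annotated end. Nupr1, Cavin2 and these 6 are the 8 largest gains by that ranking. All 8 separated the groups and were called in aged against young, and 7 stayed called with the gene-start share as a covariate, Arap3 not (adjusted p = 0.0796).

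Losses in the same ranking were smaller, and the 8 largest ran from 1.72-fold to 2.27-fold. Ube2z, a ubiquitin-conjugating enzyme, was at 73.9, 97.9, 92.8 and 118 CPM in young and 35.9, 42.8, 44.9, 63.4 and 57.1 CPM in aged Ri. The groups did not overlap (log2 fold change -0.90 ± 0.16 SE, edgeR adjusted p = 0.000539). Tanc2, a scaffold protein, was at 68.4, 76.1, 74.7 and 114 CPM in young and 28.7, 30.1, 35.8, 48.5 and 71 CPM in aged Ri, where aged Ri 5 lay above young 1 (log2 -0.89 ± 0.16 SE, edgeR adjusted p = 0.000643). The window of Coa8, a mitochondrial assembly factor, fell by 0.78 on the log2 scale and also covers the start of Bag5. Lipo3, Nlrc3 and the annotated ends of Rcsd1 and Snx2 also fell, and each of these 4 lost its call without at least 1 library. None of the 8 stayed called with the gene-start share as a covariate. In aged against young 2 of the 8 were called, and in aged Ri against aged 1, Iqgap2, described below.

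**Figure D4:**
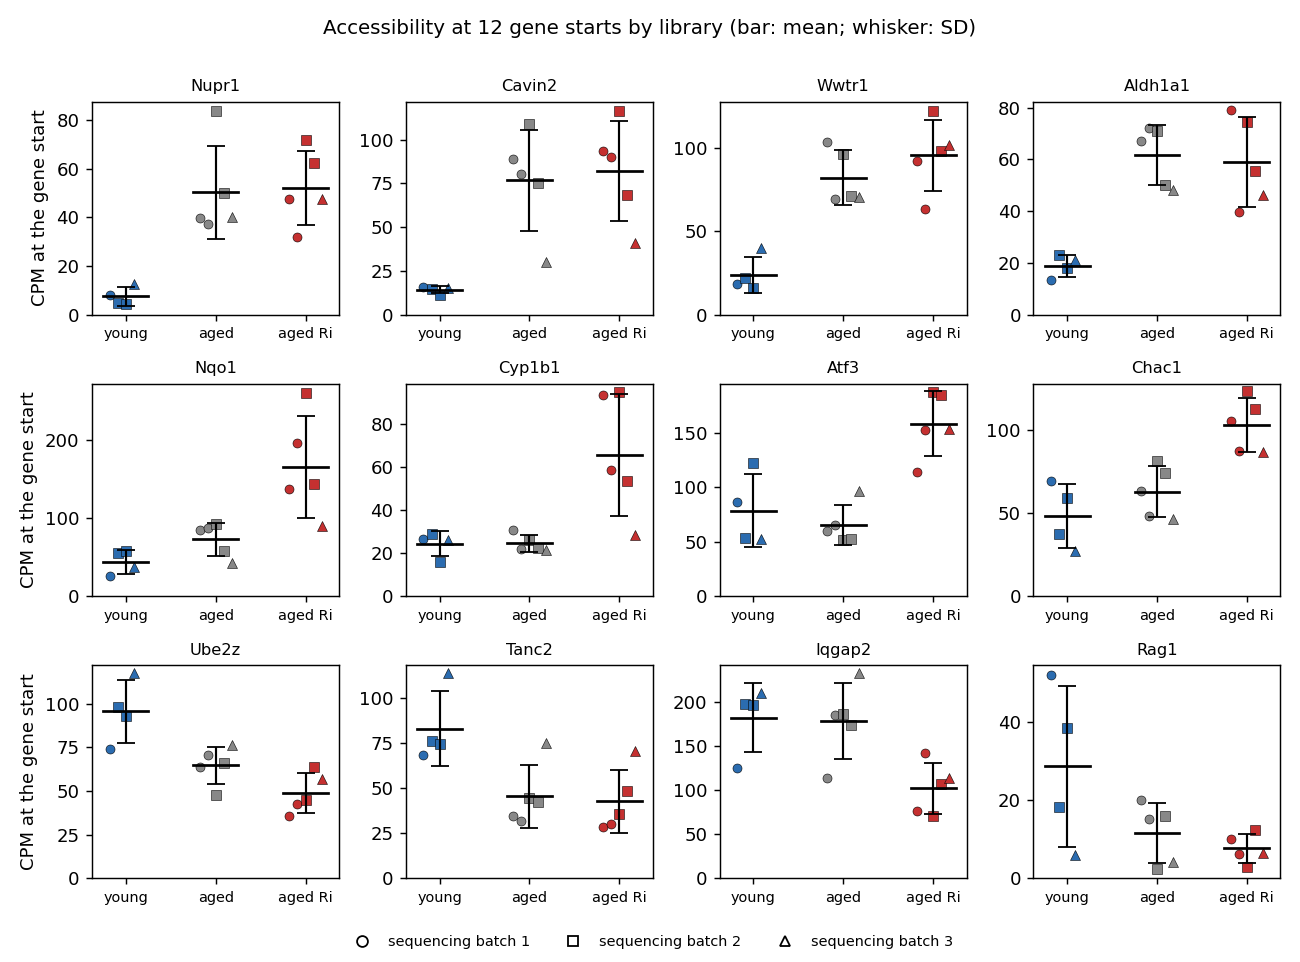
CPM at 12 gene starts in each library (points; shapes are sequencing batches), with the group mean (bar) and SD (whisker), for young, aged and aged Ri cells. At Nupr1, Cavin2, Wwtr1 and Aldh1a1 both old groups lie above young, at Cyp1b1, Atf3 and Chac1 the aged Ri mean stands apart from both, and at Ube2z and Tanc2 both old means lie below young.

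Among 23 gene lists, genes known to rise in old HSCs had the largest share of higher starts. Of 33 tested genes of an HSC ageing signature, 14 were higher and none lower, beside 4.07% higher among all gene starts. Their median log2 fold change was 0.95, against 0.00 over all. The members called were Cavin2, Nupr1, Wwtr1, Aldh1a1, Plscr1, Rorb, Art4, Ehd3, Jam2, Plscr2, Ampd3, Clu, Clca3a1 and Neo1. Leaving out single libraries gave 11 to 18, and the gene-start share as a covariate 5.

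Aldh1a1, a retinaldehyde dehydrogenase, was at 13.4, 23.0, 18.1 and 21.0 CPM in young and 79.0, 39.6, 74.4, 55.3 and 46.1 CPM in aged Ri. The gain was 3.06-fold (log2 1.61 ± 0.23 SE, edgeR adjusted p = 2.28e-05), and no treated library reached into the young range. The annotated end of Vwf, the platelet adhesion protein, was at 9.53 ± 1.64 CPM in young (SD, n = 4), 28.6 ± 7.32 in aged (SD, n = 5) and 20.5 ± 9.96 in aged Ri (SD, n = 5). It was called in aged against young (2.86-fold, edgeR adjusted p = 0.0111) but not in aged Ri against young (2.04-fold, adjusted p = 0.0743). Aged Ri against aged did not pass either (log2 -0.49, adjusted p = 0.864, and 0.469 with the replicate block). Selp, which encodes P-selectin, did not pass (2.26-fold, adjusted p = 0.0853).

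Of 29 HSC identity genes, 6 were higher and none lower, beside 4.07% and 1.24% over all gene starts. The 6 were Procr, Tek, Hoxb5, Robo4, Angpt1 and Tcf15. Procr, the EPCR surface marker of HSCs, was at 22.0, 27.8, 15.8 and 33.7 CPM in young and 41.7, 52.3, 87.7, 46.6 and 46.8 CPM in aged Ri, 2.09-fold (log2 1.07 ± 0.24 SE, edgeR adjusted p = 0.00458). Tek, the angiopoietin receptor, was 3.10-fold higher, at 5.25 to 8.65 CPM in young and 12.7 to 28.7 CPM in aged Ri, though not called without aged Ri 5 (edgeR adjusted p = 0.0516). Kit, the stem cell factor receptor, did not pass (log2 -0.17 ± 0.16 SE, edgeR adjusted p = 0.557). The list count was 2 without young 1, 3 without young 2, young 3, aged Ri 3 or aged Ri 5, and 4 without aged Ri 1. It was 10 without young 4, 2 higher and 1 lower when scaled over all peaks, and 0 with the gene-start share as a covariate. A peak inside Mllt3, a regulator of HSC maintenance, was 3.47-fold higher (log2 1.79 ± 0.25 SE, edgeR adjusted p = 1.96e-05).

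Some genes of stress programmes were higher at their starts, while most members of each such list did not pass. Of 23 genes of the integrated stress response, which slows protein synthesis through phosphorylated eIF2 alpha, 6 were higher and none lower: Nupr1, Chac1, Slc7a11, Trib3, Atf3 and Ppp1r15a. The list's median log2 fold change was 0.13. Over all gene starts 4.07% were higher and 1.24% lower. Chac1, a glutathione-degrading enzyme, was at 69.2, 37.5, 58.9 and 27.0 CPM in young, 63.4, 48.5, 81.2, 73.8 and 46.6 CPM in aged and 105, 87.2, 123, 113 and 86.3 CPM in aged Ri. All treated libraries lay above both other groups. It was 2.15-fold above young (log2 1.11 ± 0.18 SE, edgeR adjusted p = 0.000109) and 1.65-fold above aged (adjusted p = 0.04). The list count was 5 to 7 without single libraries, and 3 under scaling over all peaks and with the gene-start share as a covariate.

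Atf3, a stress-induced bZIP repressor, was at 86.5, 53.2, 122 and 52.5 CPM in young, 59.8, 65.1, 51.7, 52.7 and 96.8 CPM in aged and 114, 152, 187, 184 and 154 CPM in aged Ri. Only aged Ri 1 lay below the highest young library, young 3. The fold was 2.15 over young (log2 1.11 ± 0.22 SE, edgeR adjusted p = 0.0061) and 2.40 over aged (adjusted p = 0.0154), and the former call was lost when scaled over all peaks. Atf3 belongs to the 28 immediate early and AP-1 genes as well. Of these 5 were higher and none lower, beside 4.07% and 1.24% over all gene starts. The others were Ier3, Nr4a3, Egr3 and Klf2. Ier3, an early response gene, was 1.82-fold higher (edgeR adjusted p = 0.00128), and the orphan nuclear receptor gene Nr4a3 1.75-fold (adjusted p = 0.0017). That count was 4 to 6 without single libraries, 1 when scaled over all peaks and 2 with the gene-start share as a covariate. Klf4, a zinc finger factor, did not pass (log2 -0.05 ± 0.15 SE, edgeR adjusted p = 0.882).

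NRF2, the oxidative stress factor, and the aryl hydrocarbon receptor, which senses planar aromatic compounds, share Nqo1 as a target. Nqo1, a quinone reductase, was at 25.9, 55.6, 58.9 and 38.2 CPM in young, 85.2, 87.2, 92.4, 58.0 and 43.0 CPM in aged and 138, 197, 261, 144 and 90.0 CPM in aged Ri. The treated libraries were above all young ones, with aged Ri 5 below the highest aged one. It was 3.70-fold above young (log2 1.89 ± 0.23 SE, edgeR adjusted p = 4.96e-05) and 2.25-fold above aged (adjusted p = 0.0154). With the gene-start share as a covariate the former was no longer called (log2 1.63, adjusted p = 0.0713).

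Of 25 NRF2 targets, 4 were higher and none lower, beside 4.07% and 1.24% over all gene starts. The 4 were Nqo1, Slc7a11, Srxn1 and the annotated end of Hmox1. Slc7a11, the cystine importer, was 2.94-fold higher (edgeR adjusted p = 0.000222), and a peak inside it was 4.56-fold above young (adjusted p = 2.02e-05) and 2.31-fold above aged (adjusted p = 0.0241). The list count was 2 without young 1, young 2, young 3 or aged Ri 3, 7 without young 4 or aged Ri 4, and 0 with the gene-start share as a covariate. Scaled over all peaks it was 2 higher and 1 lower.

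Of 13 aryl hydrocarbon receptor targets, 4 were higher and none lower, beside 4.07% and 1.24% over all gene starts. The 4 were Nqo1, Cyp1b1, Ugt1a6a and the annotated end of Aldh3a1. Cyp1b1, a cytochrome P450, was at 26.7, 29.0, 15.8 and 26.2 CPM in young, 30.8, 22.1, 26.3, 22.4 and 21.5 CPM in aged and 93.4, 58.7, 94.8, 53.5 and 28.5 CPM in aged Ri. Treated libraries 1 to 4 stood above all others, and aged Ri 5 lay among the untreated ones. The fold was 2.37 over young (log2 1.25 ± 0.25 SE, edgeR adjusted p = 0.00181) and 2.55 over aged (adjusted p = 0.0107). A peak inside Ahrr (chr13:74259964-74260663), the receptor's repressor, also had aged Ri 5 as its lowest treated library. It was at 14.2, 22.0, 12.8 and 18.4 CPM in young, 11.6 to 28.6 CPM in aged and 71.3, 74.1, 74.2, 65.1 and 28.7 CPM in aged Ri, 3.32-fold above young (edgeR adjusted p = 2.73e-05) and 2.89-fold above aged (adjusted p = 0.000741). The list count was 3 to 5 without single libraries and 0 with the gene-start share as a covariate.

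**Figure D5:**
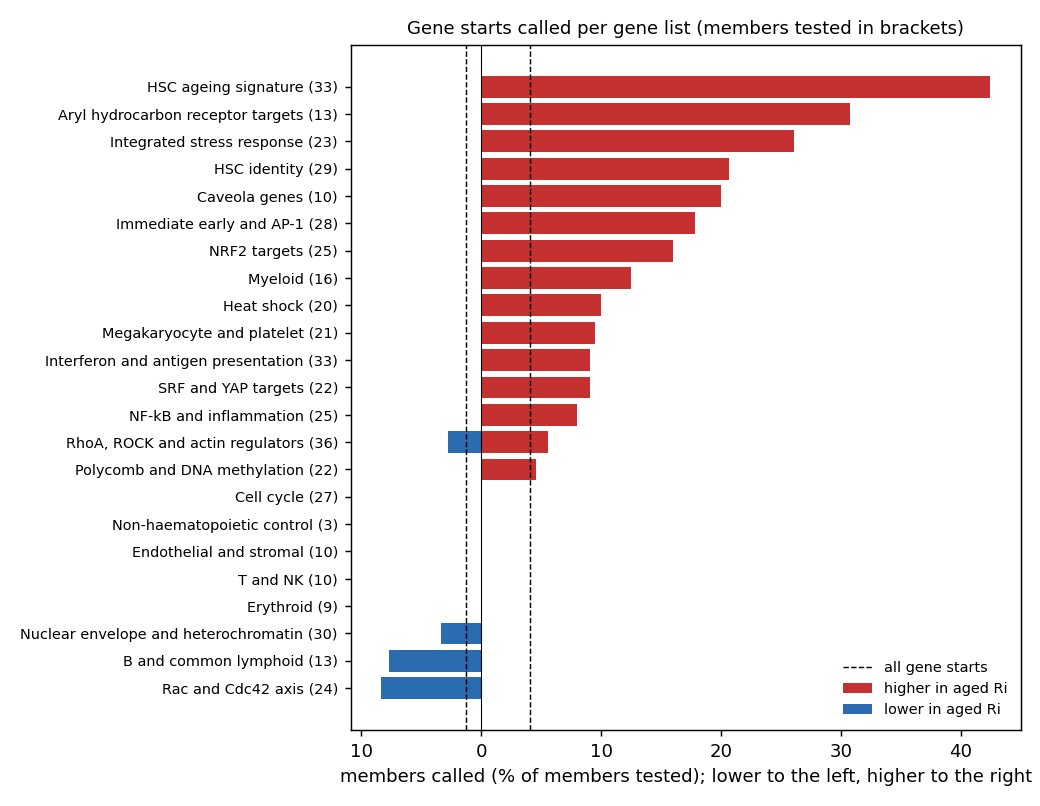
Members of each gene list called at their gene starts, in percent of the members tested (number in brackets), higher in aged Ri than in young to the right and lower to the left; dashed lines give the shares over all gene starts, 4.07% and 1.24%. The HSC ageing list reaches furthest to the right with 14 of 33, and lists share genes.

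Other genes stood higher in aged Ri than in both other groups. A peak 6734 bp from Ripk3 (chr14:55795591-55796290), a kinase of necroptosis, was at 9.77, 9.62, 9.94 and 8.22 CPM in young, 15.2, 10.5, 15.4, 14.4 and 14.7 CPM in aged and 38.5, 33.2, 71, 47.1 and 29.1 CPM in aged Ri. The 3 groups did not overlap, and the fold was 4.56 over young (edgeR adjusted p = 1.36e-06) and 3.05 over aged (adjusted p = 0.000711). The annotated end of Pdgfb, a growth factor that platelets store, was 2.53-fold above young (adjusted p = 0.00147) and 2.45-fold above aged (adjusted p = 0.013). A peak 25962 bp from Cd9, a tetraspanin, was 2.88-fold above young (adjusted p = 0.000518) and 2.57-fold above aged (adjusted p = 0.00763). Peaks inside Sun1, a nuclear envelope linker to the cytoskeleton, and Sptb, a spectrin, were 3.08-fold and 2.38-fold above young. They were 2.40-fold and 3.53-fold above aged, and the Sptb call over young was lost without young 1. With the gene-start share as a covariate, the Sun1 and Cd9 peaks were no longer called over young (edgeR adjusted p = 0.229 and 0.0755). The annotated end of Pdgfb lost its call over young there too. The Ripk3 and Sptb peaks kept theirs (edgeR adjusted p = 0.000919 and 0.0475). Ripk3, Pdgfb, Cd9, Sun1 and Sptb were named because they belonged to a list, and aged Ri libraries enter both folds.

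Among genes of the inhibited pathway, calls at starts went both ways. Of 36 regulators of RhoA, ROCK and actin, 2 were higher and 1 lower, and of 24 of the Rac and Cdc42 axis none was higher and 2 were lower, beside 4.07% higher and 1.24% lower over all gene starts. An unadjusted p under 0.05 was met by 16 of the 36 and 7 of the 24, beside 21.4% of all gene starts. Their medians were -0.06 and -0.12 on the log2 scale. Without aged Ri 2 the calls were 6 higher and 2 lower in the first list and 4 lower in the second, without aged Ri 4 they were 6 and 1, and 1 higher and 4 lower, and no member of either was called with the gene-start share as a covariate. Arhgdib, an inhibitor that holds RhoA and related GTPases in the cytosol, was 1.96-fold higher (edgeR adjusted p = 0.00426), with aged Ri 5 at 107 CPM and young 2 at 112 CPM. The annotated end of Rhpn1, a scaffold that binds RhoA, was 1.89-fold higher, but was not called without young 1 or when scaled over all peaks, and Arhgef11, a RhoA exchange factor, fell by 0.75 on the log2 scale (adjusted p = 0.00618). Peaks away from starts were higher inside Diaph1, a formin that RhoA activates (3.84-fold, adjusted p = 2.88e-05), and inside Arhgef12, another RhoA exchange factor (5.50-fold, adjusted p = 0.000235). Of 183 tested peaks of these RhoA genes 14 were higher and 3 lower, a share of 7.65% higher beside 7.9% over all peaks.

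Iqgap2, a scaffold for Rac1 and Cdc42, moved in both directions within the gene. Its start was at 125, 198, 197 and 211 CPM in young, 114, 186, 186, 174 and 234 CPM in aged and 76.2, 143, 70.9, 107 and 114 CPM in aged Ri. Aged Ri 2 was the only treated library above young 1, and the start fell by 0.80 on the log2 scale against young (SE 0.18, edgeR adjusted p = 0.0061) and by 0.84 against aged (adjusted p = 0.0246). A peak inside the gene was 2.83-fold higher than in young (adjusted p = 9.71e-05), at 11.1 to 24.1 CPM in young and 33.3 to 66.4 CPM in aged Ri. Vav2, a Rac exchange factor, fell by 0.58 on the log2 scale at its start (edgeR adjusted p = 0.011), a call lost without aged Ri 3.

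Of 22 genes on the list for SRF and YAP, factors that respond to actin and tension, 2 were higher, Amotl2 and the TAZ gene Wwtr1. Of 10 caveola genes Cavin2 and the annotated end of Cavin3 were higher. No member of either list was lower, beside 4.07% higher and 1.24% lower over all gene starts. The caveola count was 4 without aged Ri 2 or aged Ri 4, and each list kept 1 call, Wwtr1 and Cavin2, with the gene-start share as a covariate. Amotl2, which holds YAP at cell junctions, was 2.23-fold higher (edgeR adjusted p = 0.00192). Of 30 genes of the nuclear envelope and heterochromatin, only the annotated end of Lemd2 was called, falling by 0.64 on the log2 scale. It lost its call without young 4 and without aged Ri 5, while the list had 4 lower without aged Ri 2 and 5 without aged Ri 4. Lmnb1, which encodes lamin B1, was at 203 ± 17.6 CPM in young (SD, n = 4) and 147 ± 26.5 CPM in aged Ri (SD, n = 5) at its annotated end and did not pass (log2 -0.45 ± 0.15 SE, edgeR adjusted p = 0.0611).

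Lineage lists gave 0 to 2 calls each at gene starts, beside 4.07% higher and 1.24% lower over all. Of 21 megakaryocyte and platelet genes 2 were higher, the annotated end of Pdgfb and Gp1ba, a von Willebrand factor receptor chain, which was 2.38-fold higher (edgeR adjusted p = 0.0222) and lost its call without young 3, aged Ri 1, aged Ri 3 or aged Ri 5. The list count was 1 without aged Ri 1, 3 or 5, 6 without young 4 and 7 without aged Ri 4. Summed over the list, counts ran from 1053 to 1373 CPM in young and 1266 to 1669 CPM in aged Ri libraries, and their part in the other results was not tested. Of 16 myeloid genes the annotated ends of Cebpd and Csf2rb were higher relative to other gene starts, but scaled over all peaks none was higher and 2 of the list were lower, and Csf2rb lost its call when any 1 of 6 libraries was left out. Of 13 B and common lymphoid genes 1, Rag1, was lower. Rag1, a recombinase subunit, was at 51.9, 18.1, 38.5 and 6.00 CPM in young and 10.1, 6.34, 2.81, 12.4 and 6.58 CPM in aged Ri. Young 4 lay within the treated range, and the loss (log2 -1.73 ± 0.43 SE, adjusted p = 0.0153) was no longer called without young 1, young 3, aged Ri 1 or aged Ri 3. The summed B and common lymphoid counts were 592 to 978 CPM in young and 611 to 728 CPM in aged Ri. Of 86 tested peaks of these B and common lymphoid genes 4 were higher and 12 lower, a share of 14% lower beside 3.56% over all peaks. Of 109 peaks of the megakaryocyte and platelet genes 15 were higher and 2 lower, a share of 13.8% higher beside 7.9% over all peaks, and of 95 of the myeloid genes 1 was higher and 6 were lower.

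None of 9 erythroid, 10 T and NK, 10 endothelial and stromal, 27 cell cycle and 3 non-haematopoietic gene starts was called by edgeR with all libraries and batch as a term, nor by DESeq2. An unadjusted edgeR p under 0.05 was met by 3, 1, 2, 4 and 0 of them. Leaving out 1 library gave up to 2 erythroid, 1 T and NK, 1 endothelial and stromal and 3 cell cycle calls. The replicate block in place of batch called 2 erythroid starts higher and 1 cell cycle start each way. A 2 kb window called 1 endothelial and stromal start each way. Of 32 erythroid peaks 4 were higher and 0 lower, and of 96 cell cycle peaks 1 was higher and 6 were lower. The T and NK peaks gave 2 and 2 of 54, the endothelial and stromal ones 5 and 3 of 71. Over all peaks 7.9% were higher and 3.56% lower. The sort excluded cells with Flt3, a cytokine receptor of multipotent progenitors, and 2 peaks inside Flt3 moved apart. One (chr5:147366050-147366749) was at 44.4, 39.9, 22.7 and 42.1 CPM in young and 14.6, 15.3, 11.3, 17.3 and 17.8 CPM in aged Ri, without overlap (log2 -1.32 ± 0.23 SE, edgeR adjusted p = 0.000213). The other (chr5:147388754-147389453) was 3.24-fold higher (adjusted p = 0.000494). In bulk libraries, fewer cells of a type and less open chromatin per cell cannot be told apart.

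Inflammatory lists gave calls that single libraries decided. Over all gene starts 4.07% were higher and 1.24% lower. Of 33 interferon and antigen presentation genes, Gbp3, H2-Eb1 and Rsad2 were higher at their starts, 1.70-fold, 1.67-fold and 1.74-fold, and none was lower. The count was 0 without young 2, 1 without aged Ri 1, 3 or 5, 2 without young 1, 5 without aged Ri 2, and 0 when scaled over all peaks or with the gene-start share as a covariate. Of 25 NF-kB and inflammation genes, Ptgs2 and Il6 were higher, and of 20 heat shock genes Hspa1b and Hspb1. Both counts fell to 0 without aged Ri 3, when scaled over all peaks, without the batch term and with the gene-start share as a covariate. The first was also 0 without young 1 and the second without young 3, young 4 or aged Ri 5, and other left-out libraries gave 1 to 3. A peak inside Tnfaip3, a brake on NF-kB signalling, was 5.57-fold higher and did not depend on any single library (edgeR adjusted p = 4.4e-05, and 0.00103 at most with a library left out). Kdm6a, an X-linked histone demethylase, was the only one of 22 Polycomb and DNA methylation genes called, a share near the 4.07% higher over all. It was 1.68-fold higher (edgeR adjusted p = 0.00323), but was not called without young 1, where its adjusted p was 0.0732.

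The promoters of the called genes differed in letters as well. An AP-1 match lay in 54 of the 426 higher promoters with a sequence (12.7%) and 2 of the 134 lower ones (1.49%), against 4.6% of all 10777. An ETS match lay in 4.69%, 23.9% and 17.9%, and a GC box in 47.7%, 78.4% and 66.1%. NF-kB matches lay in 59.9%, 82.8% and 69.0%. The median G or C content was 56.7% in the higher, 68.8% in the lower and 61.3% in all promoters. A sequence was at hand for 78.2% of the 545 higher and 80.7% of the 166 lower gene starts, beside 80.3% of all, and these shares describe those promoters alone. The motif shares were not adjusted for base content, which differed between the groups, and its part in them was not tested. AP-1 was picked from 13 motifs after its share had been seen, and none of the shares was tested.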

How the data were processed

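Bulk ATAC-seq was analysed from a deposited matrix of raw counts per consensus peak and library with 57289 peaks, each 700 bp wide, placed on the mouse build mm10. The authors made the counts with featureCounts beside R 4.2.0 and SAMtools 1.14, as their processing notes list. The aligner, the peak caller, duplicate handling and any shift for Tn5 are not given in the sources used here. One peak set covers all libraries; how it was called is not stated.

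Testing was done with edgeR 4.0.16 under R 4.3.3. All 14 libraries entered 1 fit, after filterByExpr by group and TMM scaling, as a robust quasi-likelihood fit with group and sequencing batch as terms and Benjamini-Hochberg adjustment at 0.05 over all features. The aged libraries enter it to share the estimate of spread, with 9 residual degrees of freedom. SE was the log2 fold change divided by the square root of F. CPM is counts scaled to a common library size with TMM factors. Batch is a term of the fit but not of CPM, so folds need not equal ratios of mean CPM. Peaks were scaled over all peaks and gene starts over gene-start sums. Gene names and listed starts came from RefSeq (GRCm38.p6, the assembly called mm10): of 21883 protein-coding genes 13416 had counts, 10777 at a listed start and 2639 at an annotated end. Where 2 genes share a window the counts belong to both.

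Single values per library were tested by 2-sided exact permutation, with all arrangements enumerated (numpy 2.4.6). The scripts were tested on simulated data. Genes were named by rule. Of called peaks or gene starts with a mean count of at least 20 over the 9 libraries and 1 direction in all 3 batches, the 12 (peaks) or 8 (gene starts) largest and smallest log2 fold changes were taken. To these were added up to 4 called gene starts and 2 called peaks by smallest p from each of 23 gene lists, and a short set always reported (Rhoa, Klf4, Kit, Procr, Vwf, Selp, Lmnb1, Nupr1, Cavin2, Wwtr1, Cyp1b1, Atf3, Nqo1). Slc37a3 was in that set but had no row at its start. One peak among the 12 largest gains is not reported here. The comparison, members and lists were chosen with earlier results of these data known. Same-numbered young and aged Ri libraries correlated in their deviations from the group means at -0.20 to 0.07, so replicate numbers were not taken as pairs there. Same-numbered aged and aged Ri libraries correlated at 0.14 to 0.65 and share a batch, so aged Ri against aged was also fitted with the number as a block, in those 10 libraries, an alternative chosen after seeing the data. Alternatives covered the libraries fitted, tool, scaling, filters, batch, replicate block, gene-start share, window and left-out libraries.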

Additional observations from a re-analysis of the deposited data

Results flagged for a closer look

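In 254 groups of 4 or 5 libraries, 1 library stood far from the others in 17, where chance alone gives about 1 in 20. In 10 of these it was aged Ri 3, the deepest library, always as the highest: 95.5 CPM at the Nprl3 peak, 44.2 CPM at the Ipo5 peak, 35.8 CPM at the Diaph1 peak, 121 CPM at the Baiap2 peak, 77.1 CPM at the Slc7a11 peak and 44.2 CPM at the Cdkn1a peak. At gene starts aged Ri 3 stood apart with 152 CPM at Olfr520, 61.8 CPM at the annotated end of Cavin3, 87.7 CPM at Procr and 49.1 CPM at Ugt1a6a. All 10 of these items stayed called without aged Ri 3 except Ugt1a6a.

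The other 7 were spread over 6 libraries. Aged Ri 5 was low at the Ahrr peak (28.7 CPM), aged Ri 1 high at Rcsd1 (31.6 CPM) and aged Ri 2 low at Rhpn1 (47.6 CPM). Among young libraries, young 4 was high at the Wwtr1 start peak (25.6 CPM) and at Tanc2 (114 CPM), young 1 low at Iqgap2 (125 CPM) and young 2 high at Arhgdib (112 CPM).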

How the results depend on the processing

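The count of called peaks (6443) fell to 4204 without the batch term and to 573 with the gene-start share as a covariate, and that of gene starts (711) to 343 and 41. Leaving out 1 library gave 2809 (aged Ri 3) to 9036 (young 4) peaks and 223 (young 1) to 1250 (aged Ri 4) gene starts. The difference in gene-start share was -6.72 points without the batch term (exact permutation p = 0.0397) and -7.65 to -4.88 points without single libraries. Fewer libraries change the number of features tested and the residual degrees of freedom, and the cause of the other changes was not tested. DESeq2 called 5674 peaks and 508 gene starts, and the 9 libraries alone 4929 and 627.

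The replicate block in place of batch gave 8792 peaks (5109 higher, 3683 lower) and 1536 gene starts (888 and 648). In that fit of all libraries the block also ties young libraries to old ones by number, though these were not taken as pairs. Young 2 and young 4 differ in batch from aged Ri 2 and aged Ri 4, so the higher counts are no firmer result. Of the named values, 6 lost and 3 gained a call under the block, while 71 lost it with the gene-start share as a covariate and 20 of 61 gene starts when scaled over all peaks. For aged Ri against aged (251 peaks, 24 gene starts), the 10 libraries alone, an alternative chosen after seeing the data, gave 819 peaks with batch, and 2292 peaks and 128 gene starts with the replicate block. The 10 named peaks and 6 named gene starts called there were kept under that block, and 8 and 2 were gained. Signs turned for 2 genes that never passed. Rhoa was 0.14 on the log2 scale with the covariate. Klf4 was 0.22 with it, 0.00399 with loess offsets, and -0.17 to 0.072 without single libraries, above 0 without young 3 and, at 0.0090, without aged Ri 5. At this depth 53.0% of tested peaks had a mean count under 20, and these gave 1129 of the 4441 higher and 892 of the 2002 lower calls.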
